A study of Arabidopsis thaliana with 8 samples.

Results

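The transcripts described here are the 200 probe sets whose signal differed most between replicate arrays of developing Arabidopsis thaliana leaves, taken from 10090 eligible probe sets among the 22810 on the array. They were chosen by their spread. Signals were written as log2(signal + 10), the SD was taken over the 4 arrays of each of the 2 groups, and the root mean square of the 2 SDs, called the spread below, ranked the probe sets. Eligible probe sets had means from 50 to under 1000 array units over the 8 arrays, were no array controls and read no gene of the plastid or mitochondrial genome. Because these SDs made the choice, they are given as a description, with no test.

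The series title presents these arrays as controls for work on signals of irradiance and CO2 that pass between leaves. Total RNA from 8 samples was hybridised to ATH1 arrays, an Affymetrix design that reads each transcript with a set of short probes, and the deposited signals are on a linear scale. All plants were Col-0 of stock N1092, grown in compost at 20 °C, 50% humidity and 10 h of light, and all samples are developing leaves, insertions 19 to 21, taken at 0 h. Nothing in the labels states whether replicates are separate plants or harvests, so their spread may be biological, technical or both.

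The elevated group holds 4 arrays whose treatment text names elevated growth. A CO2 level of 750 ppm and 24 h in a cuvette before harvest are written for elevated replicate 1, which also speaks of the same adjustment for the plants it is compared with. Elevated replicate 4 is described as elevated with no gas named. The not-elevated group holds the 4 arrays with no mention of elevated growth, and 3 of them are called controls. Not-elevated replicate 1 is marked with the letter A instead and has another title code, and the shared description calls the atmosphere of all 8 samples normal. Signals below are listed for replicates 1 to 4 of each group in that order.

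Replicate leaves of one genotype, grown and harvested alike, can still differ in transcripts that answer small differences in handling, time, light, temperature, water, pathogens and leaf age. Jasmonate and ethylene induce antimicrobial defensins, strong light and sugar induce the enzymes that make red anthocyanin pigments, and unfolded proteins induce small heat shock proteins within minutes. Such genes are known for large changes within a leaf, and the part of such responses in the spread here was not tested.

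Of the cell type markers, 10 of 65 genes in 7 lists are named on the array, 5 of them were eligible and 0 were among the 200. The young leaf gene YAB3, a regulator of leaf polarity, read 193, 147, 179 and 165 units in the not-elevated arrays and 155, 175, 156 and 166 units in the elevated arrays. SPCH, which starts the stomatal lineage, read 115, 96.6, 108 and 138 units in the not-elevated arrays and 87.5, 111, 102 and 97.4 units in the elevated arrays. The root genes PYK10 and EXPA7 reached no more than 38.4 and 35.9 units in any array, under the eligible minimum of 50. The lists of floral and of vascular markers had 0 genes named on the array, so these tissues were not checked.

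The spread of the 200 had a median of 0.40, against 0.15 over all eligible probe sets, and ran from 0.34 to 1.14 on the log2 scale. It was at least 0.5 in 42 of them. Within a group, the brightest array exceeded the dimmest by a median of 1.84-fold in the not-elevated arrays and 2.17-fold in the elevated arrays, compared with 1.25-fold and 1.28-fold over all eligible probe sets. The choice ended in a dense part of the ranking: AT1G65490, at rank 199, had a spread of 0.3450, and the probe set at rank 200 had 0.3444. The next in line outside were AT5G16810 with 0.3442, AT1G22690 with 0.3438 and AT5G14540 with 0.3430, so membership near the end is a matter of small differences.

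**Figure D1:**
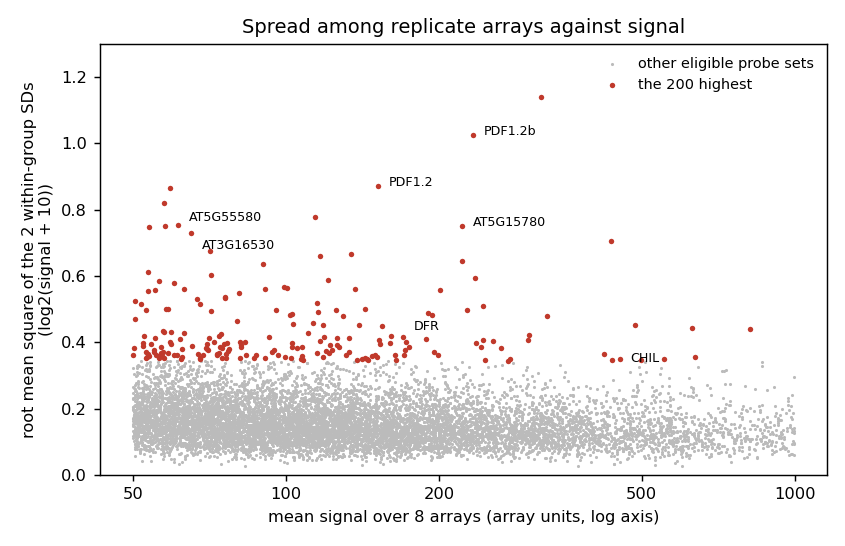
Spread (root mean square of the 2 within-group SDs of log2(signal + 10)) against mean signal over 8 arrays in array units on a log axis, with 1 point for each of the 10090 eligible probe sets and the 200 highest in red. The 200 lie between 0.34 and 1.14, the eligible median is 0.15, and 105 of the 200 have a mean signal under 100 units.

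Dim probe sets were more frequent among the 200. The median of their mean signals was 94.3 units, against 121 units over the eligible ones, and 52.5% lay under 100 units against 39.5%. They made up 2.64% of the probe sets between 50 and 100 units and 0.616% of those between 500 and 1000 units. Low-signal measurement error in this choice was not tested. Probe sets whose design shares probes with several transcripts were also more frequent, at 11.0% against 3.07% for identifiers ending in _s_at and at 1.5% against 0.109% for those ending in _x_at.

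In the gene tables used here, 98 of the 200 name 1 gene, 11 name several and 91 name none. The shares over the eligible probe sets were 53.8%, 1.77% and 44.4%. The functions below therefore come from fewer than 100 of the 200, and the highest spread of all, 1.14, belongs to an unnamed probe set, 262119_s_at, chosen after its values were seen. It read 66.0, 659, 684 and 378 units in the not-elevated arrays and 122, 167, 328 and 138 units in the elevated arrays. Not-elevated replicate 1 lay far below the other 3 arrays of its group.

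All 8 arrays chose the 200, so recurrence was described with another pair of lists, the 200 probe sets of highest SD in each group alone. Of the 200 members, 100 are in the not-elevated list, 125 in the elevated list and 12 in neither. The lists share 37 probe sets, or 18.5% of each, and a list of 200 holds 1.98% of the eligible probe sets. The list chosen in the not-elevated arrays had a median SD of 0.24 in the elevated arrays, against 0.14 over all eligible probe sets, and 165 of its 200 lay above that overall median. The list chosen in the elevated arrays had a median SD of 0.22 in the not-elevated arrays, against 0.13, and 164 of 200 lay above. Dim and shared-probe designs recur in both groups, and their part in this recurrence was not tested. Without elevated replicate 3 the shared portion was 10.5%.

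**Figure D2:**
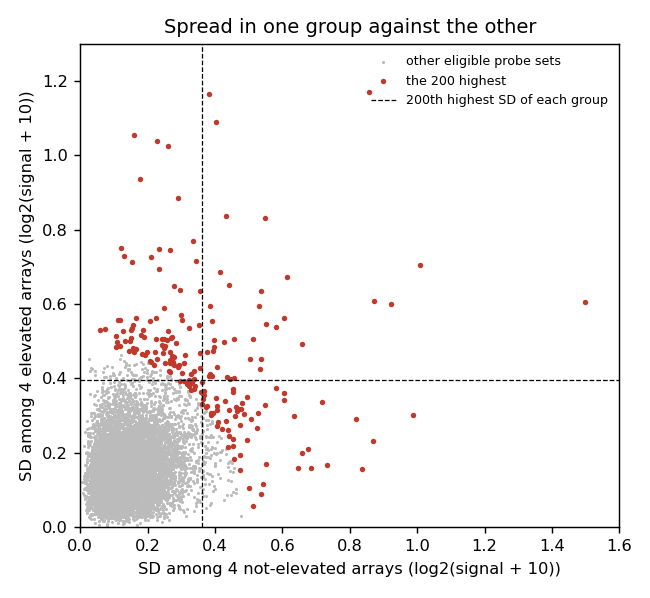
SD of log2(signal + 10) among the 4 not-elevated arrays (horizontal axis) against that among the 4 elevated arrays (vertical axis), with 1 point per eligible probe set and the 200 of highest spread in red. Dashed lines mark the 200th highest SD of each group, and 37 probe sets lie beyond both.

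Among these 37 are PDF1.2b, PDF1.2, AT4G14090 and AT2G29500, that is 2 defensins, an anthocyanin glucosyltransferase and a small heat shock protein. The oxygenase AT2G38240, AT5G15780, AT4G17470, AT4G19430, AT3G51720, AT4G17830, AT2G07751, AT3G05190 and AT5G62130 are among them too. Over all 200, the SD was higher in the elevated arrays in 123, or 61.5%, against 56.4% of the eligible probe sets. In 78 of them the SD of 1 group was more than 2 times that of the other.

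The 2 named genes of highest spread were the defensins PDF1.2b and PDF1.2. They encode small antimicrobial peptides of the leaf, textbook targets of jasmonate with ethylene. PDF1.2b, with a spread of 1.03, read 81.6, 371, 228 and 183 units in the not-elevated arrays and 208, 382, 57.8 and 356 units in the elevated arrays. PDF1.2, with 0.87, read 47.5, 253, 219 and 107 units in the not-elevated arrays and 180.2, 194, 60.7 and 152 units in the elevated arrays. Both were lowest in not-elevated replicate 1 and in elevated replicate 3, and both were highest within their groups in the replicate 2 arrays. The groups overlapped in both genes. The high-to-low ratio of PDF1.2b was 4.55 in the not-elevated and 6.61 in the elevated arrays, and that of PDF1.2 was 5.33 and 3.20.

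The deviations of both defensins from their group means, taken over the 8 arrays, had a Pearson r of 0.89. The probe set of PDF1.2b can also bind transcripts of near relatives, as its _x_at design says, so the 2 signals are not separate measurements of 2 genes beyond doubt. Apart from each other, the named transcripts most like PDF1.2b were AT1G31780 (r = 0.92), a subunit of a Golgi tethering complex, and AT1G51745 (r = 0.87). AT1G31780 also came next for PDF1.2 (r = 0.79), followed by AT5G04060 (r = 0.78). These likenesses are over 8 arrays and describe shared ups and downs alone. Of the jasmonate list, 33 genes long, 3 were eligible, and the remaining one, the thionin THI2.1, had a spread of 0.24. In the wider keyword class of thionins, defensins and pathogenesis-related proteins, these 2 were the members among 16 eligible genes, and the class had a median spread of 0.22.

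The genes that follow belong to none of the lists and are described for their own high spread or small limma p. AT2G38240, an oxygenase of the family that hydroxylates jasmonate, read 31.9, 92.5, 89.9 and 57.9 units in the not-elevated arrays and 44.2, 25.9, 77.2 and 31.6 units in the elevated arrays. AT3G16530, a legume-type lectin, read 45.3, 129, 132 and 26.1 units in the not-elevated arrays and 37.9, 36.4, 62.0 and 51.1 units in the elevated arrays. Its spread of 0.73 came from the not-elevated arrays, whose SD was 0.99 against 0.30 in the elevated ones. AT4G20830, a berberine-bridge-like oxidase, read 59.7, 106, 82.1 and 58.6 units in the not-elevated arrays and 32.4, 35.7, 62.2 and 51.2 units in the elevated arrays, and its 2 highest arrays were not-elevated replicates 2 and 3, as for the lectin and the oxygenase.

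AT4G01870, a protein related to bacterial TolB, read 24.9, 114, 96.7 and 62.4 units in the not-elevated arrays and 34.0, 30.5, 42.9 and 22.6 units in the elevated arrays. Not-elevated replicate 1 was the lowest of its group, and 3 of the 4 not-elevated arrays exceeded every elevated array. A comparable order was seen in a senescence marker that was too dim to be eligible, PPDK, an enzyme of nitrogen recovery in ageing leaves, which read 17.0, 67.0, 69.5 and 38.7 units in the not-elevated arrays and 16.6, 21.0, 14.0 and 15.2 units in the elevated arrays. Of 8 senescence markers 2 are named on the array, and their summed signal ran from 21.9 to 92.3 units in the not-elevated arrays and from 25.0 to 29.3 units in the elevated arrays. WRKY6, the other of the 2, did not share the order of PPDK. It read 4.94, 25.3, 5.49 and 18.8 units in the not-elevated arrays and 12.7, 5.29, 12.5 and 9.85 units in the elevated arrays. The part of leaf ageing in these differences was not tested.

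Of 22 genes in the flavonoid list 6 were eligible, and 3 were among the 200: the dihydroflavonol reductase DFR, which makes the leucoanthocyanidin precursors, and the glycosyltransferases AT4G14090 and UF3GT, which decorate the finished pigment. AT4G14090 had a spread of 0.55 and read 34.2, 57.1, 60.1 and 102 units in the not-elevated arrays and 91.7, 69.3, 164 and 67.0 units in the elevated arrays. UF3GT, with 0.49, read 82.4, 182, 199 and 206 units in the not-elevated arrays and 151, 210.5, 292 and 199 units in the elevated arrays. DFR, with 0.42, read 95.4, 108, 152 and 166 units in the not-elevated arrays and 159, 253, 284 and 142 units in the elevated arrays. In all 3, not-elevated replicate 1 was the lowest of the 8 arrays and elevated replicate 3 the highest. The groups overlapped in each.

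A keyword search for flavonoid names added CHIL, a chalcone isomerase-like protein that assists chalcone synthase. It read 518, 466, 437 and 499 units in the not-elevated arrays and 292, 354, 653 and 403 units in the elevated arrays. Elevated replicate 3 was again the highest, but the not-elevated arrays stayed within 1.19-fold of each other. Without elevated replicate 3 the spread of CHIL fell to 0.18, at rank 3177, so its membership rests on that array. The pairwise r of the deviations was 0.74 between AT4G14090 and UF3GT, 0.70 between AT4G14090 and DFR and 0.73 between UF3GT and DFR. CHIL correlated with these 3 at 0.49, 0.38 and 0.42. Averaged over the 4 genes, the deviation was 0.60 in elevated replicate 3, 0.37 in not-elevated replicate 4 and -0.45 in not-elevated replicate 1.

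The remaining eligible genes of the flavonoid list lay further down. AT5MAT, the malonyltransferase that acts on the same pigments, had a spread of 0.31 at rank 347. The flavonol glycosyltransferases UGT78D1 and UGT78D2 had 0.26 and 0.13. These are values of few genes, and the early enzymes of the list are not among the eligible named probe sets.

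**Figure D3:**
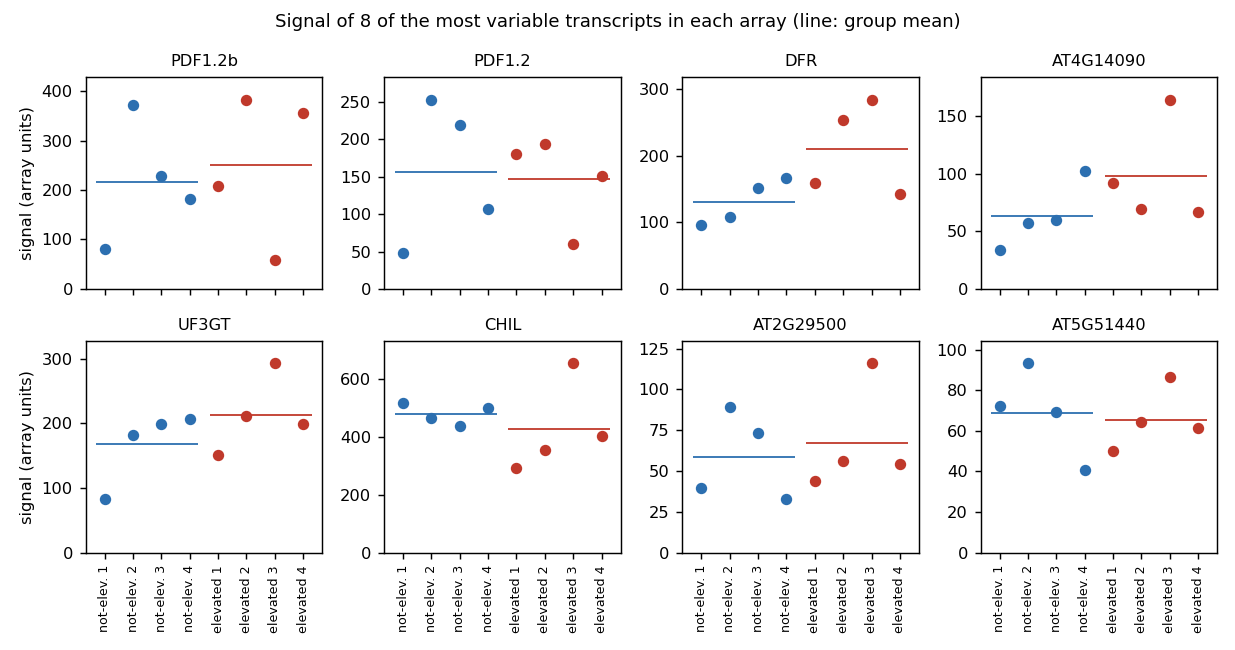
Signal in array units (vertical axes start at 0) of 8 of the most variable named transcripts in each of the 8 arrays, with not-elevated arrays in blue, elevated arrays in red and a line at each group mean. PDF1.2b and PDF1.2 are lowest in not-elevated replicate 1 and elevated replicate 3, whereas AT4G14090, UF3GT, DFR and CHIL are highest in elevated replicate 3.

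Small heat shock proteins, which hold unfolded proteins until other chaperones refold them, include 2 of the named members. AT5G51440 is the member of the heat shock list, whereas AT2G29500 is not on that list and was set beside it after the values were seen. AT2G29500, a cytosolic one, read 39.5, 89.3, 73.5 and 33.0 units in the not-elevated arrays and 43.6, 55.9, 116 and 54.3 units in the elevated arrays. AT5G51440, a mitochondrial one, read 72.0, 93.2, 69.4 and 40.4 units in the not-elevated arrays and 49.8, 64.3, 86.4 and 61.3 units in the elevated arrays. In both, the highest arrays were not-elevated replicate 2 and elevated replicate 3, not-elevated replicate 4 was the lowest of the 8, and the groups overlapped. Their deviations had an r of 0.85. Of the 28 genes in the heat shock list 3 were eligible. Those other than AT5G51440 had spreads of 0.32 (Fes1A, a cochaperone) and 0.19 (HSA32).

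In the cold list 1 of 3 eligible genes was a member, and in the iron and copper list 0 of 2. COR15A, a cold-induced protein that protects chloroplast membranes, read 82.8, 58.0, 52.8 and 95.6 units in the not-elevated arrays and 54.4, 29.6, 43.4 and 27.9 units in the elevated arrays. Its highest array was less than 2 times its lowest in each group. Its close relative COR15B and the dehydrin COR47, the other eligible genes of the cold list, had spreads of 0.19 and 0.22. AT4G30650, not on that list and of a family of small membrane proteins induced by cold and salt, read 148, 203, 184 and 152 units in the not-elevated arrays and 100.4, 122, 254 and 124 units in the elevated arrays.

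MT1C, on none of the lists, is a metallothionein that binds copper and zinc and read 114, 101, 76.1 and 142 units in the not-elevated arrays and 58.8, 45.1, 145 and 44.0 units in the elevated arrays. Elevated replicate 3 stood at 145.0 units, whereas the other 3 elevated arrays lay between 44.0 and 58.8. AT5G61820, named for its likeness to a stress-induced nodulin, read 88.6, 129, 145 and 121 units in the not-elevated arrays and 54.8, 49.9, 110.2 and 59.7 units in the elevated arrays. In MT1C, AT4G30650 and AT5G61820 alike, elevated replicate 3 was the highest of its group.

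The list of cell wall expansion had 0 members among 4 eligible genes, and the keyword classes of wall enzymes and of proline-rich wall proteins had 0 among 11 and 0 among 1. Some single wall-related genes outside these lists had high spread. AT5G15780, a proline-rich wall protein of the extensin and pollen allergen kind, had a spread of 0.75 and read 358, 92.6, 134 and 291 units in the not-elevated arrays and 119, 193, 251 and 338 units in the elevated arrays. Its lowest signals were in not-elevated replicate 2 and elevated replicate 1. AT4G22490, a lipid transfer protein, read 146, 105, 165 and 167 units in the not-elevated arrays and 167, 31.9, 58.2 and 95.8 units in the elevated arrays, and elevated replicate 2 was its lowest array. These 2 genes lie in different blocks of the clustering described below, 2 and 3, and the extensins in block 5.

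The extensins AT4G08410, AT5G06630 and AT5G59170, structural proteins that crosslink the wall, were picked after their values were seen. AT5G06630 read 58.9, 51.5, 43.0 and 53.0 units in the not-elevated arrays and 94.8, 43.9, 41.8 and 62.4 units in the elevated arrays. AT4G08410 read 61.2, 58.2, 77.3 and 76.5 units in the not-elevated arrays and 105, 61.3, 38.9 and 81.1 units in the elevated arrays, and AT5G59170 read 140.0, 90.8, 96.5 and 133 units in the not-elevated arrays and 172, 140.0, 80.0 and 118 units in the elevated arrays. Their pairwise r lay between 0.70 and 0.75, and their mean deviation was 0.55 in elevated replicate 1 and -0.54 in elevated replicate 3. The probe sets of AT4G08410 and AT5G06630 are of the _x_at kind, so signal from related extensins cannot be kept apart. The wall-loosening expansins EXPA15, EXPA4 and EXPB3 and the xyloglucan enzyme XTH16, the eligible genes of the cell wall list, had spreads from 0.13 to 0.18 and none was among the 200.

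Several named members with high spread owed it to 1 or 2 arrays. AT5G55580, the chloroplast protein mTERF9, read 69.5, 73.1, 92.4 and 76.3 units in the not-elevated arrays and 10.3, 19.8, 76.2 and 73.0 units in the elevated arrays. AT1G16690, related to a chromatin protein named enhancer of polycomb, read 40.6, 56.8, 61.0 and 40.4 units in the not-elevated arrays and 10.4, 85.4, 69.4 and 66.6 units in the elevated arrays. AT1G10720, with a BSD domain, read 75.2, 80.0, 88.2 and 92.6 units in the not-elevated arrays and 24.9, 91.5, 56.8 and 97.9 units in the elevated arrays. Elevated replicate 1 was the lowest array in all 3, and the not-elevated arrays differed by no more than 1.51-fold.

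AT5G52580, which holds a domain of Rab GTPase activators, read 59.1, 49.4, 60.0 and 46.8 units in the not-elevated arrays and 16.4, 62.0, 59.0 and 62.3 units in the elevated arrays. Apart from elevated replicate 1, its arrays lay between 46.8 and 62.3 units. The opposite case was AT1G14330, an F-box protein with kelch repeats, which read 61.7, 67.5, 54.9 and 48.4 units in the not-elevated arrays and 191, 36.9, 60.3 and 47.0 units in the elevated arrays, with elevated replicate 1 as the sole high array. AT4G17470, a thioesterase-like protein, read 112, 80.4, 50.9 and 62.2 units in the not-elevated arrays and 123, 393, 152 and 98.3 units in the elevated arrays and was highest in elevated replicate 2.

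Of the other members with leading spreads, AT4G19430 read 219, 92.0, 111 and 76.6 units in the not-elevated arrays and 151, 478, 346 and 303 units in the elevated arrays. AT3G51720, of a coiled-coil family whose best-known member governs chloroplast movement, read 109, 87.8, 71.3 and 183 units in the not-elevated arrays and 235, 98.8, 100.1 and 81.8 units in the elevated arrays. AT4G17830, a metallopeptidase-like protein, read 90.4, 74.0, 57.0 and 122 units in the not-elevated arrays and 165, 98.1, 49.5 and 137 units in the elevated arrays. Elevated replicate 1 was the highest of its group in the last 2, and elevated replicate 2 in the first. AT3G19030 read 77.0, 54.6, 47.4 and 51.2 units in the not-elevated arrays and 26.9, 26.6, 70.6 and 87.9 units in the elevated arrays, with both extremes in the elevated arrays. AT5G43100, an aspartyl protease, read 47.5, 59.1, 75.3 and 58.1 units in the not-elevated arrays and 62.1, 15.6, 40.7 and 70.7 units in the elevated arrays and was lowest in elevated replicate 2.

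Probe sets that read transcripts of the organelle genomes had been left out, 107 in all. Of these, 43 had a mean signal in the eligible range, and 15 would have reached the spread of the 200. AT2G07751, a nuclear copy of a mitochondrial gene in the large mitochondrial insertion of chromosome 2, remained. It read 198, 331, 226 and 134 units in the not-elevated arrays and 372, 213, 313 and 166 units in the elevated arrays. AT2G07708, a locus of the same insertion picked after its values were seen, read 53.1, 116, 64.4 and 56.8 units in the not-elevated arrays and 103, 62.4, 74.7 and 62.7 units in the elevated arrays.

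Not-elevated replicate 2 and elevated replicate 1 were the highest of their groups in both, and their deviations had an r of 0.84. Another locus of the insertion, AT2G07724, correlated with them at 0.01 and 0.17. The left-out probe sets in the eligible signal range with a mitochondrial gene, several genes or no placed gene numbered 11, plastid ndhB among them. Their median deviations were 0.32 and 0.27 in these 2 arrays, and these are not medians of mitochondrial genes alone. Single values were 0.75 and 0.92 for cox1 and 0.59 and 0.59 for nad4. They were 0.05 and -0.06 for the probe set of AT2G07715 and rpl2, and -0.22 and 0.27 for that of AT2G07734 and rps4. Near-identical sequence in the mitochondrial genome can bind the same probes, so the nuclear and the organelle transcript cannot be told apart here.

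Across the 20 function lists, 465 genes in all, 66 are named on the array, 39 were eligible and 7 were members. The members lie in 4 lists: jasmonate (2 of 3 eligible), flavonoid (3 of 6), heat shock (1 of 3) and cold (1 of 3). The heat shock and cold entries rest on 1 gene each, and neither was chosen in every setting. AT5G51440 ranked 132 after quantile normalization but 1042 without not-elevated replicate 4. COR15A ranked 122 with a pseudocount of 1 but 208 after quantile normalization. UF3GT fell to 587 without not-elevated replicate 1, and DFR to 324 with a minimum signal of 20 and no upper limit. PDF1.2b, PDF1.2 and AT4G14090 ranked no lower than 14, 11 and 113 in any ranked setting. In the keyword class of heat shock proteins and chaperones 0 of 3 eligible genes were members, with a median spread of 0.10. In that of late embryogenesis, dehydrin and cold-regulated proteins 1 of 8 was, with a median of 0.17. The sugar starvation list had 5 eligible genes, a median spread of 0.24 and 0 members. The 3 eligible genes of glucosinolate synthesis and the 3 of the endoplasmic reticulum chaperones also had 0 members, with median spreads of 0.19 and 0.11. The lowest spread among the listed genes was that of LHCB4.3, a light-harvesting antenna protein, with 0.06. These counts are too small to rank pathways.

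The deviations fell unevenly over the arrays. For each probe set, the array farthest from its group mean was noted. Among the 200 this was elevated replicate 1 in 52, not-elevated replicate 1 in 42 and elevated replicate 3 in 40. Over all eligible probe sets the same 3 arrays led, with 21.0%, 17.3% and 14.2%, against 26%, 21% and 20% of the 200. Not-elevated replicate 3 was farthest in 7, the fewest. It was also last over all eligible probe sets, with 7.37%.

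**Figure D4:**
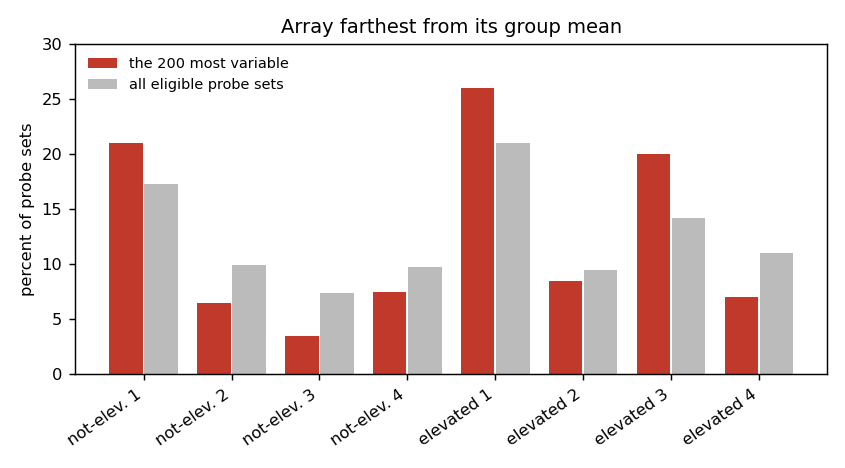
Percent of probe sets (vertical axis) for which each of the 8 arrays was the farthest from its group mean, for the 200 most variable in red and for all 10090 eligible probe sets in grey. Elevated replicate 1, not-elevated replicate 1 and elevated replicate 3 hold 26%, 21% and 20% of the 200.

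The arrays were alike in scaling, with a trimmed mean of 100 units each, and 66.1% to 69.7% of all probe sets reached 20 units. The 3′ to 5′ signal ratio of the control transcripts, a sign of RNA integrity, ran from 1.03 to 1.61 for GAPDH. It was highest in not-elevated replicate 1, followed by elevated replicate 1 (1.43) and elevated replicate 3 (1.41). These 3 arrays were also the ones most often farthest from their group means. For actin it ran from 4.15 to 6.80 and was highest in not-elevated replicate 4, with 5.88, 4.18 and 6.19 in those 3 arrays. For ubiquitin it ran from 2.56 to 3.56 and was highest in elevated replicate 2. The signal of the 25S ribosomal RNA control ran from 73.4 to 600.2 units and was highest in not-elevated replicate 2. The part of these values in the deviations of single transcripts was not tested.

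Members were then grouped by how they moved together. Average-linkage clustering on 1 minus the Pearson r of the deviations over 8 arrays, at a tree height of 0.5, put 169 of the 200 into 11 blocks of at least 10 members and left 31 in smaller ones. With 4 arrays per group and the group means taken out, only 6 degrees of freedom remain, so an r over 8 arrays is loosely determined. Among pairs of the 200, 2.99% had an r of at least 0.8, against 1.89% of all eligible pairs, and the median absolute r was 0.347 against 0.324. Each block is a description of these 8 arrays.

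Block 1, the largest with 24 members, was marked by low signals in not-elevated replicate 1. Its mean deviation was -0.85 there, 0.41 in not-elevated replicate 2 and 0.38 in not-elevated replicate 3. AT4G01870 (r with the block mean 0.96), UF3GT (0.86) and AT5G51570 (0.84), a membrane protein of the hypersensitive-induced kind, were its most typical named members. AT5G51570 read 53.6, 92.8, 109.5 and 106 units in the not-elevated arrays and 44.8, 67.1, 72.3 and 54.5 units in the elevated arrays. Block 10, with 11 members, was the reverse, at 0.67 in not-elevated replicate 1.

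In block 10, AT2G07170 (r = 0.96), with armadillo-like repeats, read 119, 57.3, 56.3 and 57.4 units in the not-elevated arrays and 77.1, 91.7, 68.8 and 81.7 units in the elevated arrays. AT5G41940 (0.94), a second protein with the Rab activator domain, read 81.1, 45.0, 43.0 and 44.5 units in the not-elevated arrays and 47.5, 72.4, 38.1 and 53.7 units in the elevated arrays. Not-elevated replicate 1 was the highest array in each, whereas the other 3 of its group lay close together. AT5G22580 (0.91), a stress-responsive protein of barrel fold, read 417, 208, 210.5 and 168 units in the not-elevated arrays and 230.4, 271, 248 and 203 units in the elevated arrays. ATG8E, which coats autophagosomes, and LSM3B, of a complex that acts in messenger RNA decay and splicing, are in this block too. ATG8E read 97.2, 61.2, 45.9 and 39.1 units in the not-elevated arrays and 49.5, 88.4, 72.1 and 50.9 units in the elevated arrays. LSM3B read 216, 133, 144 and 141 units in the not-elevated arrays and 176, 226, 93.1 and 108 units in the elevated arrays.

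Blocks 2, 3 and 5, of 18 members each, were marked by elevated replicate 1. The mean deviation there was -0.84 in block 2, 0.63 in block 3 and 0.61 in block 5. Block 2 holds AT5G52580 (r = 0.94), AT1G10720 (0.89) and AT1G16690 (0.88), whose low signals in that array are given above. In block 3, AT1G35430 (0.98) read 37.1, 51.1, 47.9 and 42.4 units in the not-elevated arrays and 109.6, 46.3, 53.2 and 69.0 units in the elevated arrays. AT4G32060 (0.92), a mitochondrial calcium-binding protein, read 255, 338, 231 and 219 units in the not-elevated arrays and 547, 260.3, 259 and 280.0 units in the elevated arrays, and AT3G55690 (0.95) read 80.9, 88.7, 89.8 and 68.8 units in the not-elevated arrays and 133, 49.9, 64.3 and 87.5 units in the elevated arrays.

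Block 3 was lowest in elevated replicate 2, at -0.38, and block 5 in elevated replicate 3, at -0.42. Typical of block 5 were AT2G01640 (0.95), AT1G67210 (0.94), a protein with a proline-rich spliceosome-associated domain, and FHIT (0.92), a nucleotide hydrolase. AT1G67210 read 54.8, 42.5, 42.8 and 64.8 units in the not-elevated arrays and 83.2, 38.5, 37.6 and 37.6 units in the elevated arrays. AT2G01640 read 95.7, 83.0, 68.2 and 107 units in the not-elevated arrays and 187, 92.4, 77.8 and 113 units in the elevated arrays, and FHIT read 135, 104, 141 and 194 units in the not-elevated arrays and 214, 138, 109 and 145 units in the elevated arrays. The 3 extensins lie in this block. Of its 18 members 14 name 1 gene, the most of any block.

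Block 4, with 18 members, was at -0.51 in elevated replicate 1, 0.40 in elevated replicate 2 and 0.37 in not-elevated replicate 1. AT4G19430 (0.94), AT2G46100 (0.90), of the nuclear transport factor 2 fold, and AT5G62130 (0.89), related to a yeast protein of lipid remodelling, were typical. AT2G46100 read 204, 152, 129 and 99.8 units in the not-elevated arrays and 115, 199.8, 139 and 158 units in the elevated arrays. AT5G62130 read 236, 233, 249 and 123 units in the not-elevated arrays and 102, 232, 218 and 160.2 units in the elevated arrays, with its lowest not-elevated array in replicate 4. The small heat shock protein AT5G51440 fell here. AT2G29500 fell in a smaller cluster with the lectin AT3G16530 and the oxidase AT4G20830, and both defensins in another with AT1G31780 and AT1G51745.

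Blocks 6, 7 and 11 were highest in elevated replicate 3, with mean deviations of 0.80, 0.47 and 0.59. Block 6, of 15 members, holds AT4G30650 (0.96), AT5G61820 (0.95) and CHIL (0.83), and its oxygenase AT2G38240. Block 11, of 10 members, holds AT4G14090 (0.92), DFR (0.91) and AT5G51220 (0.89), a protein of the family that assembles respiratory complex III. AT5G51220 read 76.3, 89.0, 117 and 212 units in the not-elevated arrays and 110.0, 104, 185 and 112 units in the elevated arrays, so it was high where the anthocyanin genes were, in not-elevated replicate 4 and elevated replicate 3. The pigment genes were thus spread over 3 blocks, UF3GT in block 1, CHIL in block 6 and the other 2 in block 11.

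Block 7, of 13 members, was high in not-elevated replicate 1 (0.40) as well as in elevated replicate 3. MT1C (0.83), AT3G62790 (0.84), a subunit of respiratory complex I, and 5-FCL (0.65), an enzyme of folate metabolism, were typical, and COR15A belongs here. AT3G62790 read 213, 145, 128 and 138 units in the not-elevated arrays and 124, 137, 174 and 85.4 units in the elevated arrays. 5-FCL read 104, 57.3, 62.8 and 52.7 units in the not-elevated arrays and 52.3, 52.4, 83.4 and 76.4 units in the elevated arrays. Not-elevated replicate 1 was the highest of all arrays in both.

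Block 8, of 12 members, was low in elevated replicate 4 (-0.75) and high in elevated replicate 1 (0.48). AT5G24760 (0.89), an alcohol dehydrogenase-like protein, read 185, 179.8, 126 and 187 units in the not-elevated arrays and 186, 208, 211 and 96.1 units in the elevated arrays. AT3G05190 (0.79), an aminotransferase-like protein, read 78.3, 80.7, 39.6 and 109.8 units in the not-elevated arrays and 79.7, 64.2, 80.6 and 36.4 units in the elevated arrays, and AT4G33380 (0.79) read 183, 245, 144 and 186 units in the not-elevated arrays and 466, 194, 237 and 164 units in the elevated arrays. Elevated replicate 4 was the lowest of its group in all 3.

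Block 9, of 12 members, was low in elevated replicate 2 (-0.52) and in not-elevated replicate 3 (-0.30). AT5G52010 (0.93), a zinc finger protein, read 108, 162, 91.9 and 104 units in the not-elevated arrays and 134, 97.9, 196 and 157 units in the elevated arrays. AT3G13180 (0.91), an RNA methyltransferase-like protein, read 131, 216, 128 and 144 units in the not-elevated arrays and 195, 119, 215 and 219 units in the elevated arrays. Both were lowest of their groups in those 2 arrays. AT5G61660 (0.86), a glycine-rich protein, read 94.8, 86.9, 50.0 and 72.7 units in the not-elevated arrays and 91.7, 52.7, 86.0 and 117 units in the elevated arrays. UGT76C2, which inactivates cytokinin by glucosylation, also lies in this block and read 56.4, 73.7, 53.0 and 42.6 units in the not-elevated arrays and 72.8, 34.3, 75.9 and 61.0 units in the elevated arrays. AT5G02550, outside the 11 blocks, read 67.0, 18.7, 59.5 and 64.8 units in the not-elevated arrays and 46.7, 63.5, 54.2 and 50.8 units in the elevated arrays, with a single low array in not-elevated replicate 2.

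**Figure D5:**
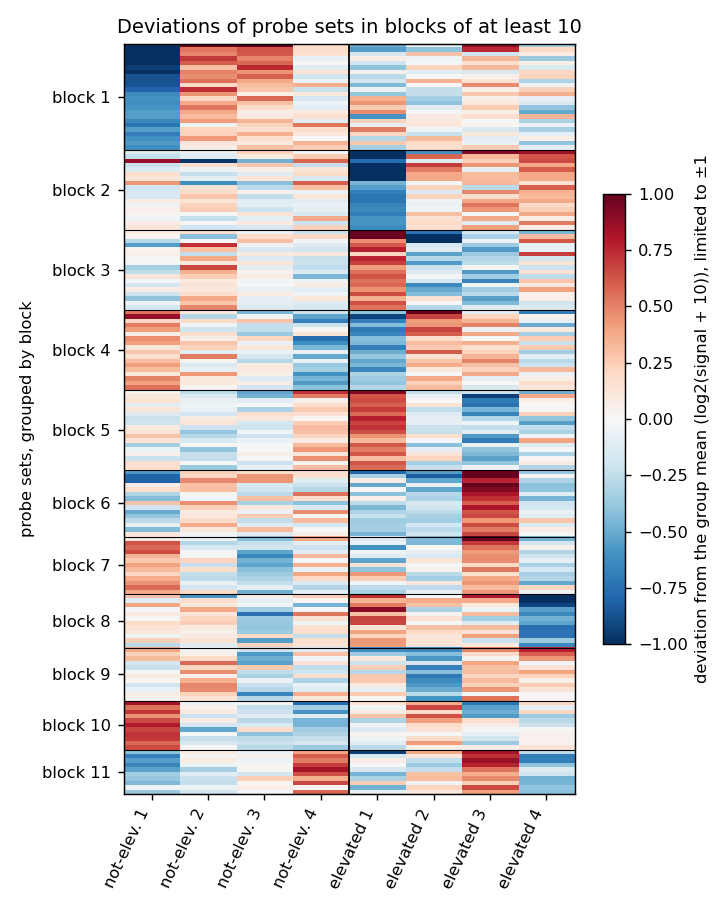
Deviation of log2(signal + 10) from the group mean (colour, limited to ±1) for the 169 probe sets in the 11 blocks of at least 10 members (rows), in the 8 arrays (columns, not-elevated on the left of the line). Block 1 is low in not-elevated replicate 1, block 2 is low in elevated replicate 1 and block 6 is high in elevated replicate 3.

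Samples that share a replicate number in both groups did not deviate together. Over the 200, the r between the deviations of same-numbered arrays averaged -0.05, with a range from -0.11 to 0.03, and 0 of the 8 arrays were closest to their own number. Pairs with other numbers averaged 0.02, from -0.13 to 0.15. Over all eligible probe sets, same-numbered pairs lay from -0.20 to -0.09 and pairs with other numbers from -0.01 to 0.12. There, same-numbered arrays thus tended to deviate in opposite directions, and the reason was not tested.

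Elevated and not-elevated arrays were compared by limma on log2(signal + 10), fitted over the 15296 probe sets whose mean reached 20 units. The spread that chose the 200 also enters the denominator of this test, drawn by limma toward that of probe sets of like signal. For the 200 this made the median SE smaller than their own SDs give, 0.20 against 0.28. At a Benjamini-Hochberg adjusted p under 0.05, 5 of the 200 were called, against 0.314% of all tested probe sets. Of these 5, 2 were higher in the elevated arrays (background 0.196%) and 3 lower (background 0.118%). In 7 of the 200 every array of one group lay above every array of the other, against a background of 6.11%. By direction alone, 92 of the 200 were higher in the elevated arrays and 108 lower.

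AT1G19960 was the called member that names a gene. Its mean signal was 155 ± 26.6 units (SD, n = 4) in the not-elevated arrays and 66.4 ± 32.3 units (SD, n = 4) in the elevated arrays. The log2 difference, elevated minus not elevated, was -1.18 (SE 0.21, limma adjusted p = 0.0422). The groups did not overlap, and elevated replicate 1 was the elevated array nearest to the not-elevated ones. Single signals were 158, 192, 137 and 134 units in the not-elevated arrays and 113, 56.1, 38.5 and 58.1 units in the elevated arrays.

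The other 4 calls are probe sets without a gene name here, chosen after their values were seen. The largest rise was in 245928_s_at, which read 237, 257, 173 and 248 units in the not-elevated arrays and 441, 1068, 913 and 552 units in the elevated arrays. Its log2 difference was 1.59 (limma adjusted p = 0.0140), and the groups did not overlap. Probe set 258133_at read 46.8, 28.8, 35.6 and 22.8 units in the not-elevated arrays and 54.8, 105, 98.9 and 66.3 units in the elevated arrays, a log2 difference of 1.06 (limma adjusted p = 0.0476).

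Lower in the elevated arrays was 263046_at, which read 361, 735, 865 and 710.0 units in the not-elevated arrays and 138, 94.1, 396 and 177 units in the elevated arrays. Its log2 difference was -1.80 (limma adjusted p = 0.0476), although elevated replicate 3 exceeded not-elevated replicate 1. Probe set 265837_at read 102, 272, 301 and 169 units in the not-elevated arrays and 59.9, 74.3, 77.0 and 89.4 units in the elevated arrays, and its groups did not overlap. The log2 difference was -1.28 (limma adjusted p = 0.0489), with the not-elevated arrays ranging over 2.95-fold.

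At an unadjusted p under 0.05 the fit named 50 of the 200, or 25%, against 11.1% of all tested. In an ordinary fit with each probe set's own SD, an alternative chosen after the data were seen, these became 17, or 8.5%, against 9.87% of all tested, and 0 of the 200, as 0 of all 15296, passed the adjusted threshold. The median SE of the 200 was 0.20 in limma's fit and 0.28 in the ordinary one. Of 17 other settings of limma's moderated fit, 14 kept 245928_s_at past the threshold (limma adjusted p from 0.00281 to 0.10), 8 kept AT1G19960 (0.00281 to 0.191), 6 each kept 263046_at (0.00373 to 0.202) and 258133_at (0.00958 to 0.191), and 4 kept 265837_at (0.00166 to 0.211). Calls over the whole array moved with single arrays, and those among the 200 with them. Leaving out not-elevated replicate 1 gave 23 calls among the 200 and 132 over all tested probe sets (0.862%), and leaving out elevated replicate 3 gave 10 and 77 (0.502%). Without not-elevated replicate 3 limma called 0 of the 200 and 0 of all, with 44 and 1400 at an unadjusted p under 0.05. Leaving out replicate 2 or replicate 4 of either group gave 1 among the 200 and 7 to 12 over all.

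No called difference was found in the defensins, the anthocyanin genes or the small heat shock proteins. The limma log2 differences, elevated minus not elevated, were 0.10 for PDF1.2b, 0.03 for PDF1.2, 0.62 for DFR, 0.55 for AT4G14090, 0.37 for UF3GT and -0.23 for CHIL, with SEs from 0.18 to 0.48. For AT2G29500 it was 0.17 and for AT5G51440 -0.04, with SEs of 0.28 and 0.19. In limma's fit the adjusted p of these 8 ran from 0.257 to 0.988.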

How the data were processed

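The authors' MAS5 software, named without a version per the submitters' processing notes, gave each probe set 1 deposited linear intensity. Further upstream steps are not given in the sources. No detection call was used, so a dim signal cannot be told from absence. Columns of other samples in the value table numbered 0.

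From these intensities, log2(signal + 10) was computed. The 200 members and all gene lists were chosen with earlier results of these data known. Organelle probe sets were taken by gene number or, where the number is not in the RefSeq gene table of TAIR10.1, by symbol. Gene names come from the platform annotation, brought up to date by gene number in that RefSeq table, and only for probe sets of 1 gene. Keyword classes matched symbols and synonyms only, and the match of AT5G55580 to the ERF factors, through the letters of its synonym mTERF9, was not counted.

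Groups were compared by limma 3.58.1 in R 4.3.3 (lmFit and eBayes with a trend, Benjamini-Hochberg over the 15296 probe sets whose mean reached 20 units), with two-sided p-values, and the fit was tested on simulated data. Clustering used scipy 1.17.1. The 56 named genes are, among members with 1 gene, the 30 of highest spread, the 2 highest of each list or class, the 3 most typical of each block and the 5 with the smallest limma p. A promoter comparison was planned and not run, since no promoter sequence was used here. The precision is limited by 4 arrays a group.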

Additional observations from a re-analysis of the deposited data

Results flagged for a closer look

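Among the 56 named genes, 112 sets of 4 replicate signals were searched for an array whose gap to its nearest neighbour exceeded 0.829 of the whole range, and 16 were found, where chance gives about 1 in 20, or 5.6. The genes were themselves chosen for their spread. Over all 200 the share was 9.75% of 400 sets, against 5.59% over the eligible probe sets. Most of the 16 lay in 3 arrays. Elevated replicate 1 stood high in AT1G14330 (191.1 units, the others 36.9 to 60.3), AT3G51720 (235.0, the others 81.8 to 100.1), AT4G32060 (546.8, the others 259 to 280.0) and AT1G67210 (83.2, the others 37.6 to 38.5), and low in AT5G52580 (16.5, the others 59.0 to 62.3).

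Elevated replicate 3 stood high in AT2G29500 (115.9 units, the others 43.6 to 55.9), MT1C (145.0, the others 44.0 to 58.8), AT5G51220 (184.7, the others 104 to 112), AT4G30650 (254.3, the others 100.4 to 124) and AT5G61820 (110.2, the others 49.9 to 59.7). Not-elevated replicate 1 stood high in LSM3B (215.7 units, the others 133 to 144), AT2G07170 (119.1, the others 56.3 to 57.4) and AT5G41940 (81.1, the others 43.0 to 45.0). The remaining 3 were low signals: AT5G02550 in not-elevated replicate 2 (18.7 units, the others 59.5 to 67.0), AT5G62130 in not-elevated replicate 4 (122.6, the others 233 to 249) and AT5G24760 in not-elevated replicate 3 (125.7, the others 179.8 to 187).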

How the results depend on the processing

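Of the 200 most variable probe sets, 134 to 161 were chosen again when 1 array was left out. With other scalings, pseudocounts, the range in place of the SD, or organelle genes by gene number alone, 143 to 197 were. A minimum mean signal of 20 with no upper limit kept 50, and a minimum of 100 kept 95. The share found in both groups was 10.5% to 19% with 1 array left out, and the low value is that without elevated replicate 3. Calls between elevated and not-elevated arrays, 5 among the 200 of 48 over all tested probe sets in limma's fit, were 1 of 30 after quantile normalization, 2 of 33 after scaling to a common median, 1 of 28 with a pseudocount of 1, 0 of 1 with no filter on low signals, 0 of 9 without the variance trend, 14 of 132 with array weights and 0 of 0 without moderation. With 1 array left out they were 0 to 23 among the 200 and 0 to 132 over all. With the replicate number as a block 11 of 50 were called, although same-numbered arrays did not deviate together. They correlated at -0.05 on average over the 200 and at -0.12 over all eligible probe sets. Pairs with other numbers averaged 0.02 and 0.04. Members in blocks of at least 10 numbered 100 at a tree height of 0.4 and 34 with complete linkage, against 141 to 180 with 1 array left out and 194 with the replicate block. No direction reversed among the 5 called differences in the 17 other settings of limma's fit. Directions of the other members and of the blocks were not compared between settings. The number of arrays limits all of these values, and detection over background was not assessed.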
